A study of Mus musculus with 6 samples.

Results

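The A2.Snail DKK cultures were compared between 12 and 24 hours after day 2 of differentiation, with 1 Affymetrix array at each time (days 2.5 and 3), so 2 of the 6 arrays of the series. They are the arrays labelled as untreated at these days, and no expression value was used to select them. A2.Snail cells are mouse ESCs of the A2lox line that carry a Snail transgene under doxycycline (dox) control. The DKK cultures carried this transgene too but received no dox. All cultures grew as embryoid bodies in 10% FCS with DKK, an inhibitor of Wnt signaling, and the ESCs had been kept on irradiated embryonic fibroblasts until a single passage without them. The DKK + dox cultures, used below only for values set beside those of DKK, differed by dox at 250 ng/mL from day 2. With 1 array per condition and time, a difference between times is the difference of 2 arrays: it includes any difference between those cultures and hybridisations, it has no replicate check, and no test was made.

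ESCs pass from a naive pluripotent state, which resembles the inner cell mass, into a formative and then primed state, which resembles the epiblast of the implanting embryo. The core factors Pou5f1 and Sox2 are expressed on both sides of this transition. Zfp42 and the Klf genes mark its naive side and Fgf5 and Otx2 its later side. The epiblast is an epithelium held together by E-cadherin, tight junctions and keratins, and it needs Wnt signals to form the primitive streak, from which mesoderm and blood arise.

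Of 18193 genes read from probe sets with exactly 1 gene symbol, 14755 exceeded an intensity of 37.2, the low-signal limit (the 40th percentile of all values), on at least 1 of the 6 arrays. Differences are given as 24 minus 12 hours on the scale log2(intensity + 20.6), which understates the change of low genes. The median over all genes was 0.01 and the central 95% lay between -0.54 and 0.57. Of all kept genes, 52.4% were higher and 47.6% lower at 24 hours, and the counts of list members below stand beside these shares. Where a gene had several probe sets above the limit on both DKK arrays (5446 genes), their differences had a pooled SD of 0.19, and this spread within the same pair of arrays is the only error estimate at hand. The array medians were 54.8 at 12 hours and 55.4 at 24 hours. Of all probe sets, 41.0% and 40.4% lay at or under the limit on these arrays.

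Markers of pluripotent, epithelial cells were high at both times. Pou5f1 read 6764 at 12 hours and 6255 at 24 hours, and Sox2 read 5599 and 5558. Cdh1, which encodes E-cadherin, read 5957 and 6222, and the cell adhesion gene Epcam 3826 and 4500. These levels were far above the limit on both arrays. Snai1 read 16.6 and 10.9, under the limit at both times. With dox it was as low (29.6, 18.8 and 14.5 at 6, 12 and 24 hours), so this probe set did not register the induced transgene and gives no check of the uninduced state. Of other cell types, the visceral endoderm gene Afp read 8.15 and 8.24, under the limit. Of the 14 kept visceral endoderm genes, 12 were above the limit on both arrays, among them Apoa4 (200 and 244) and Dab2 (170 and 136). This share is close to that over all kept genes (12579 of 14755), so the count is not particular to this list. The fibroblast gene Col1a1 read 57.7 and 62.3, and S100a4, the brightest of the fibroblast list, 627 and 718. The summed intensity of the 14 kept visceral endoderm genes was 1179 and 1116, and that of the 9 kept fibroblast genes 1122 and 1266.

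Few genes differed by 2-fold, and most of those were faint. At 24 hours 63 genes (0.427% of those kept) were up by 2-fold or more, and 52 (0.352%) were down by as much. At 1.5-fold, the counts were 328 (2.22%) and 309 (2.09%). When genes were ranked by their mean on the DKK arrays and cut into 10 equal parts, the 5 dimmer parts held 62 of the 63 higher genes and 42 of the 52 lower genes. The central 95% of the differences ran from -0.74 to 0.98 in the dimmest part and from -0.25 to 0.26 in the brightest. Among the 12579 genes above the limit on both DKK arrays, 11 (0.0874%) were 2-fold higher and 20 (0.159%) 2-fold lower.

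**Figure D1:**
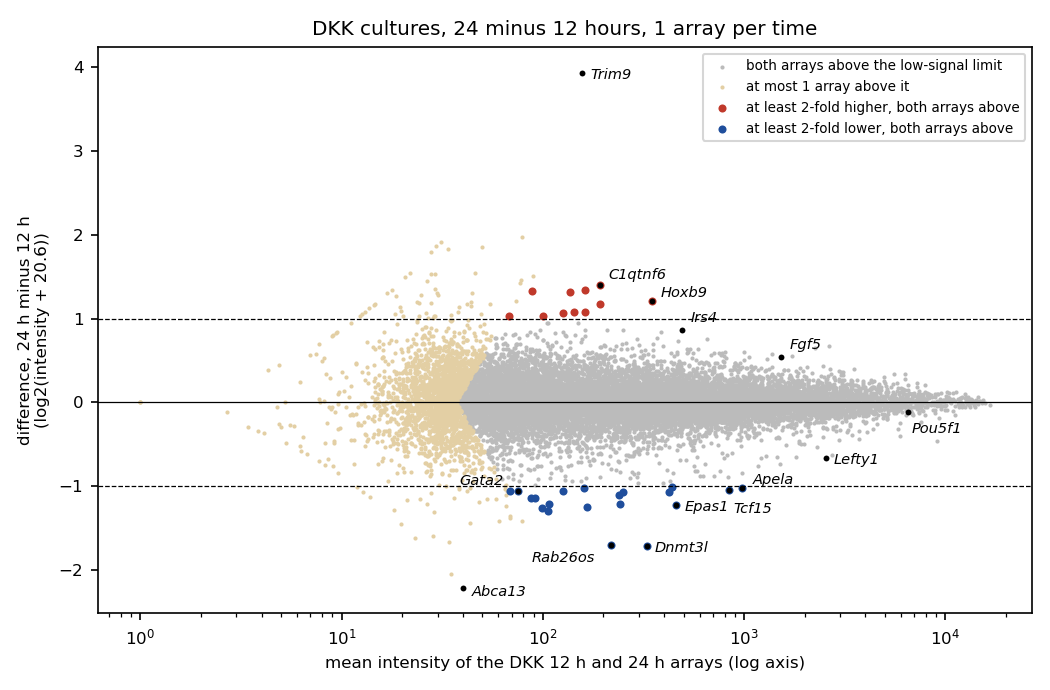
Difference between the DKK arrays (24 minus 12 hours, log2 scale) against their mean intensity (log axis), 1 point per gene, with dashed lines at 2-fold. Points spread widely at low signal and narrow toward the right, and the 20 blue and 11 red points are the genes at least 2-fold apart with both arrays above the low-signal limit.

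The genes of naive pluripotency were lower at 24 hours. Of the 20 kept genes of this list, 19 were lower, 9 of them by at least 1.5-fold, and 1 was higher. Beside these counts, 47.6% of all genes were lower, 2.09% by at least 1.5-fold. The median difference of the list was -0.53 beside 0.01 over all genes. Dnmt3l, the catalytically inactive partner of the de novo DNA methyltransferases, had the largest decrease of any gene above the limit on both arrays. Its intensity was 2238 at 6 hours, 514 at 12 hours and 142 at 24 hours (difference -1.71 from 12 to 24 hours). Zfp42, also called Rex1, read 4141, 927 and 496 at these times (-0.88). The homeobox gene Gbx2 read 339, 108 and 29.8 (-1.35), so that its last value was under the limit. Each of these genes was highest at 6 hours and lowest at 24 hours.

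The Krüppel-like factors of the naive state had the same order of levels. Klf5 read 1384, 315 and 168 at 6, 12 and 24 hours (-0.83, but -0.28 and -0.16 in its other probe sets above the limit), Klf2 418, 85.5 and 40.8 (-0.79), and Klf4 518, 69.0 and 38.1 (-0.61). Klf2 and Klf4 were thus close to the limit by 24 hours. Esrrb, a nuclear receptor of the naive network, read 286 and 202 (-0.46), and Dppa5a, the brightest gene of the list, 10493 and 7606 (-0.46). Tbx3, a T-box factor, was the exception, at 117 and 149 (0.30).

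Dmrt1, Mageb16, Tcf15, Rpl39l and AU018091, which were in no list, were lower in a similar way and were picked out as genes 2-fold apart with both arrays above the limit. Tcf15, a basic helix-loop-helix factor, read 3472, 1139 and 540 at 6, 12 and 24 hours (-1.05). Mageb16, an X-linked gene of the MAGE family, read 1669, 593 and 284 (-1.01), and Rpl39l, a paralog of the ribosomal protein gene Rpl39, 2237, 584 and 267 (-1.07). Since Rpl39l has a close copy, cross-hybridisation may add to its level. All of these went from the highest value at 6 hours to the lowest at 24 hours, as did Dmrt1, a regulator of germ cells, at 533, 220 and 98.3 (-1.02), and AU018091 at 829, 158 and 56.8 (-1.21). Epas1, the hypoxia-inducible factor HIF-2α, read 1695, 650 and 267 (-1.22).

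A further set was at about the same level or higher at 12 than at 6 hours and then lower at 24 hours. Apela, a peptide ligand of the apelin receptor, read 1273 at 6 hours, 1316 at 12 hours and 639 at 24 hours (-1.02). The noncoding RNA gene Snhg7, a host of small nucleolar RNAs, read 348, 344 and 137 (-1.21). Rab26os, a noncoding transcript on the strand opposite Rab26, read 115, 343 and 91.4 (-1.70). The levels at 6 and 24 hours thus enclosed a peak at 12 hours for Rab26os, whereas Apela and Snhg7 were level between the first time points.

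The promoters of the 4 genes with the largest decreases that were at least 2-fold lower in DKK with both arrays above the limit, at least 1.5-fold lower in DKK + dox, and listed among the RefSeq promoters are shown so that the start regions of genes that went down together in separate cultures can be read. Each is the 250 bases before the transcription start in GRCm38.p6, written 5′ to 3′ on the gene's own strand, with CG dinucleotides, the sites of DNA methylation, in capitals. Dnmt3l lies at chr10:78042037-78042286 on the + strand (the first of 3 starts listed), Rab26os at chr17:24528001-24528250 on the + strand, Snhg7 at chr2:26640245-26640494 on the - strand and Rpl39l at chr16:10169978-10170227 on the + strand.
Dnmt3l: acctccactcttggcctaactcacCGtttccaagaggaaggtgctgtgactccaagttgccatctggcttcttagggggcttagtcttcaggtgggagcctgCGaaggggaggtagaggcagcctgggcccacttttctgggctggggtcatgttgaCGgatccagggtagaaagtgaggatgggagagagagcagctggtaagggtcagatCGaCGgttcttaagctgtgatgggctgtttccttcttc
Rab26os: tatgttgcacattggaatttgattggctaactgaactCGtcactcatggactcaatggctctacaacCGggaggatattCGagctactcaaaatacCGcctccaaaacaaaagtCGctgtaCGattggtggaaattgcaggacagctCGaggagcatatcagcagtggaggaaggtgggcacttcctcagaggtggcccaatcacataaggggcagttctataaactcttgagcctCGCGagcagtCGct
Snhg7: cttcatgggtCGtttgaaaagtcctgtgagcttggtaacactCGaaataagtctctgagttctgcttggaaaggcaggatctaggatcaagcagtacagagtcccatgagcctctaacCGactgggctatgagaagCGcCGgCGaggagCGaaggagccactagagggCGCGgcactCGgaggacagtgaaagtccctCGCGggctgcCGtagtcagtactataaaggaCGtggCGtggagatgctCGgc
Rpl39l: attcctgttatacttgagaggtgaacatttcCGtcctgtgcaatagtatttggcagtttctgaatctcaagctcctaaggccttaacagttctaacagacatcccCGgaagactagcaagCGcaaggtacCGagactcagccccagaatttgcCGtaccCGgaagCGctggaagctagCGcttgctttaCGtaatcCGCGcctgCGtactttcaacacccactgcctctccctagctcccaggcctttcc
The Dnmt3l window held 5 CG dinucleotides, a number reached by 55.5% of 27025 RefSeq windows of this length. Rab26os held 10 (reached by 38.2%), Rpl39l 12 (33.8%) and Snhg7 16 (25.6%). These counts describe the letters only. A wider comparison of promoters was void, since windows were matched for 66.7% of the 63 higher and 55.8% of the 52 lower genes.

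The core pluripotency genes moved little. Over the 14 kept genes the median difference was -0.10, with 4 higher, 10 lower (beside 47.6% lower over all genes) and none at 1.5-fold. The 3 with the largest differences were the RNA-binding protein gene Lin28a, at 6740 and 5113 (-0.40, but 0.33 in another probe set, at 1936 and 2433), Dppa2, at 3880 and 2957 (-0.39), and Nanog, at 1362 and 1791 (0.39). Utf1, at 4706 and 4593, and Sall4, at 3171 and 3212, differed by less than the spread between probe sets of one gene. Nanog read 1832 at 6 hours, so its 12 hour value was the lowest of the 3.

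**Figure D2:**
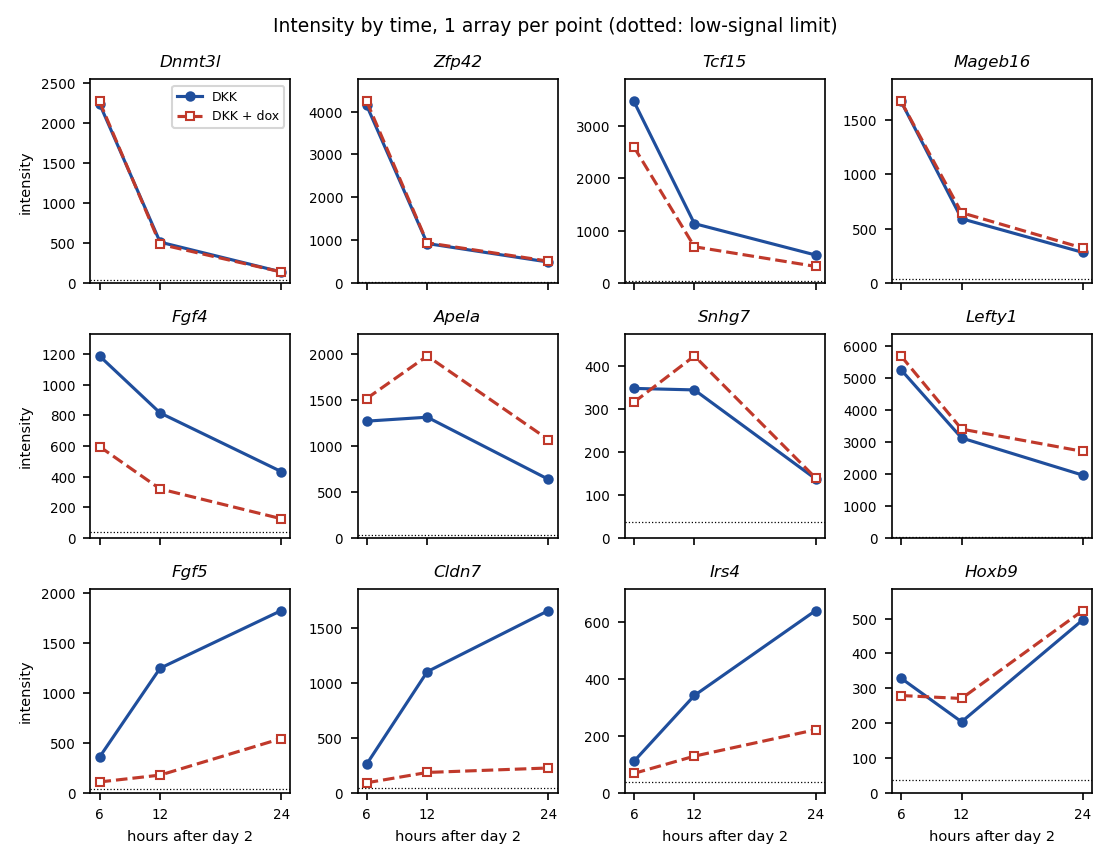
Intensity (linear axis from 0) of 12 genes at 6, 12 and 24 hours after day 2 in DKK (blue) and DKK + dox (red), 1 array per point, with the low-signal limit dotted. Dnmt3l, Zfp42 and Mageb16 have nearly the same course in both cultures, whereas Fgf5, Cldn7 and Irs4 were higher in DKK than in DKK + dox at each time.

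Genes of the epiblast differed little, with a median of 0.11. Of 21 genes 14 were higher and 7 lower, none by 1.5-fold, beside 52.4% higher over all genes. Fgf5, a growth factor gene that marks the epiblast, read 354, 1244 and 1821 at 6, 12 and 24 hours (0.54), and its other probe set, at 240 and 453, gave 0.86. Otx2, which encodes a homeodomain factor of epiblast and anterior brain, read 1065, 1633 and 2177 (0.41). Both were highest at 24 hours. Dnmt3a, a de novo DNA methyltransferase, read 2349 and 1768 (-0.41), but its 4 other probe sets ran from -0.51 to 0.01, so that no direction was settled. Dnmt3b read 10464 and 11318 (0.11). Zic5 was level at 2258 and 2216.

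Epithelial genes were higher at 24 hours, by small amounts. Of 42 genes of junctions and polarity, 34 were higher, 2 of them by at least 1.5-fold, and 8 lower (beside 52.4% higher over all genes), and the median was 0.22. The small GTPase gene Rab25 read 173 and 288 (0.68), the keratin gene Krt18 631 and 968 (0.60) and the tight junction gene Cldn7 1099 and 1655 (0.58). Cldn6, another claudin, read 1393 and 2049 (0.55), and the keratin gene Krt8 448 and 616 (0.44). Other members differed less or were lower. The desmosome gene Dsp read 141 and 175 (0.27), Pkp2 1245 and 1162 (-0.10), and Tjp1, a tight junction scaffold gene, 2062 and 1991 (-0.05). Perp, a desmosome gene that is also a p53 target, had the largest decrease of the list, at 286 and 203 (-0.46). Cdh1 itself differed by 0.06.

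All 18 kept genes of cholesterol synthesis were higher at 24 hours, by 0.06 to 0.48 with a median of 0.25, and none reached 1.5-fold. Sqle, which encodes squalene epoxidase, read 2648 and 3400 (0.36), and Sc5d, a sterol desaturase gene, 792 and 975 (0.29). Srebf2, the transcription factor of the pathway, read 509 and 718 (0.48), but its other probe set, at 520 and 544, gave 0.06. A dimmer probe set above the limit was lower for Msmo1 (-0.15), Fdft1 (-0.14), Fdps (-0.13) and Hsd17b7 (-0.07). Most other unused probe sets of the list were higher, but the count of 18 depends on the probe set used. In DKK + dox all 18 were higher as well, with a median of 0.47.

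**Figure D3:**
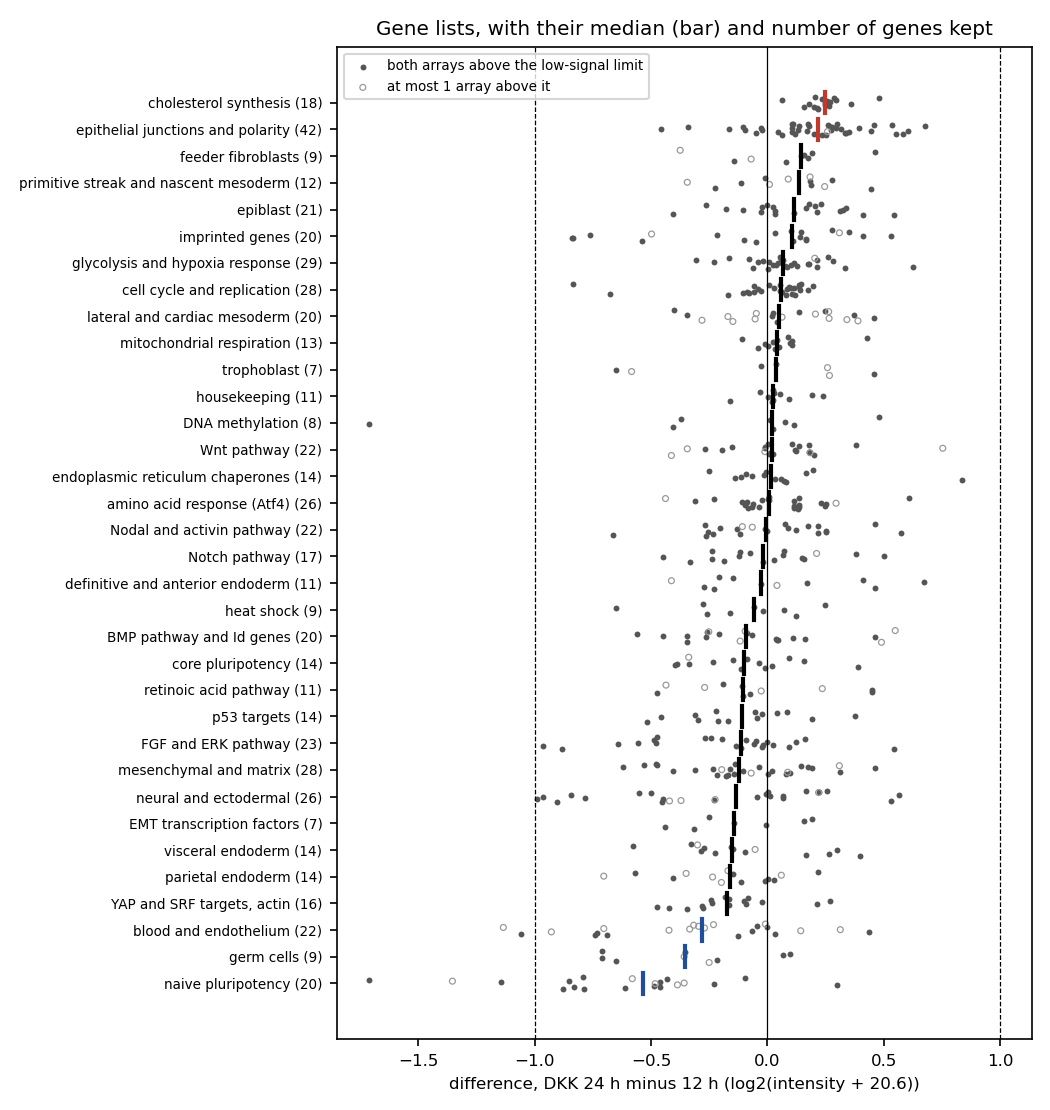
Difference between the DKK arrays (24 minus 12 hours, log2 scale) for the kept members of 34 gene lists (filled: both arrays above the low-signal limit; open: at most 1), with bars at the medians, dashed lines at 2-fold and the number of genes in parentheses. Medians of at least 0.2 are red and of -0.2 or under blue: naive pluripotency, germ cells and blood and endothelium lie to the left, epithelial and cholesterol genes to the right, and the other 29 medians lie between -0.17 and 0.14.

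Germ cell genes were lower by a median of -0.35, with 7 of 9 lower and 3 of these by at least 1.5-fold, beside 47.6% lower over all genes. Dazl, an RNA-binding protein gene of germ cells, read 198 and 113 (-0.71), and Tdrd12, of the piRNA pathway, 301 and 176 (-0.71). Tfap2c, a transcription factor shared with the trophoblast list, read 73.1 and 39.0 (-0.65). The meiotic gene Sycp3, at 1746 and 1868, was not lower. Tex19.1, a germ cell gene that is outside the list and was chosen by its value, read 572 and 288 (-0.94).

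Among FGF and ERK genes, a ligand, a receptor and an inhibitor had the largest decreases. Fgf4, the growth factor that drives ESCs out of the naive state, read 1189, 817 and 433 at 6, 12 and 24 hours (-0.88), and its 2 other probe sets above the limit gave -0.77 and 0.19. The receptor gene Fgfr3 read 557, 529 and 261 (-0.96), and Spry4, a feedback inhibitor, 382, 329 and 204 (-0.64). Of the 3 other Spry4 probe sets above the limit, 1 gave -0.70 and the dimmer ones -0.01 and 0.40. Other ligands and receptors of the family were level or higher, with Fgfr1 at 480 and 514 (0.09), Fgf8 at 162 and 148 (-0.12) and Fgf5 as given above. Dusp6, a target of ERK signaling, read 2117 and 2306 (0.12), and Egr1 598 and 671 (0.16). Other members were lower, among them Dusp5 at 110 and 68.4 (-0.56), Spred1 at 802 and 567 (-0.49) and Dusp4 at 176 and 120 (-0.48). The median over the 23 kept FGF and ERK genes was -0.12. Of these, 5 were higher and 18 lower, 3 of them by at least 1.5-fold. Over all genes 47.6% were lower, and 2.09% by at least 1.5-fold. Lefty1, an inhibitor of Nodal, read 3120 and 1959 (-0.66), and Cfc1, a co-receptor of Nodal, 143 and 223 (0.57), in a list with a median of -0.01.

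Neural and ectodermal genes were divided. Of 26 genes, 10 were higher and 16 lower, 5 of these by at least 1.5-fold. The shares over all genes were 47.6% lower and 2.09% at least 1.5-fold lower. The median was -0.13, or -0.03 over the 22 above the limit on both arrays. En2, a homeobox gene of the midbrain, read 129 and 54.7 (-0.99), and Sox1, a marker of early neuroectoderm, 220 and 108 (-0.90). The neuronal factor gene Neurod1 read 397 and 193 (-0.96), with -0.57 in its other probe set. The homeobox gene Irx3 read 89.4 and 43.3 (-0.79). The largest increases were those of the neurofilament gene Nefm, at 225 and 343 (0.57), and of Nes, which encodes nestin, at 150 and 227 (0.53). The other neurofilament genes did not follow Nefm, with Nefh at 389 and 208 (-0.84) and Nefl level at 2374 and 2392 (0.01). Rest, a repressor of neuronal genes chosen by its value, was also lower, at 1887 and 1122 (-0.74, with -0.44 and -0.37 in its other probe sets).

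Among imprinted genes the median was 0.11. The 3 genes at least 1.5-fold lower lie close together in the RefSeq gene table (GRCm38.p6). There, Kcnq1ot1 and Phlda2 have 3 kept genes between them, Cdkn1c among these. Cdkn1c, a cyclin-dependent kinase inhibitor gene, read 2778, 1263 and 698 at 6, 12 and 24 hours (-0.84), Phlda2, which restrains placental growth, 2847, 1476 and 862 (-0.76), and the noncoding Kcnq1ot1 itself 120, 146 and 72.7 (-0.84). Of its other probe sets above the limit, 1 gave -0.98 and 1 was level at 79.1 and 76.6 (-0.04). Slc22a18, between Cdkn1c and Phlda2, was under the limit on both arrays at 24.7 and 11.4, and the next gene beyond Phlda2, Nap1l4, was level at 2067 and 2263 (0.13). In DKK + dox the 3 genes did not go together: Kcnq1ot1 differed by 0.04, Cdkn1c by 0.15 and Phlda2 by -1.36. Of imprinted genes elsewhere, Magel2 read 660 and 964 (0.53) and Ndn 1037 and 1384 (0.41), whereas Dlk1 read 178 and 116 (-0.54). The cell cycle list, which also holds Cdkn1c, was level (median 0.06), and of its 28 genes Cdkn1c and the cyclin gene Ccnd2, at 223 and 132 (-0.68), were at least 1.5-fold lower.

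The increases of at least 2-fold were faint. On the 12 hour array 52 of the 63 genes were at or under the limit, and for 49 of the 63 this array had the lowest of the 6 values. Over all kept genes the 12 hour DKK array was lowest for 2360 of 14755. These counts cannot be compared, since the 63 genes were chosen by a 12 hour value under that at 24 hours. The part of the 12 hour array in these increases was not tested. Trim9, a ubiquitin ligase gene with the largest increase, read 561 at 6 hours, 1 at 12 hours and 310 at 24 hours (3.94). That value came from 1 probe set, which read 214 in DKK + dox at 12 hours, and the 3 other probe sets of Trim9 gave 0.07 to 0.46. An intensity of 1 is the lowest in the data. The 20 largest increases among genes with at least 1 DKK array above the limit ran from 1.33 to 3.94, and 17 of them had only 1 such array. Ttc38, second to Trim9, went from 19.5 to 138 in DKK (1.98), while its values with dox were 109 and 60.2. Of the 20 largest decreases, from -2.21 to -1.22, 14 had only 1 array above the limit, among them that of Wt1, a zinc finger factor gene, at 100.2 and 30.8 (-1.23).

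Of the 11 increases with both arrays above the limit, all had their lowest value of the 6 arrays at 12 hours in DKK. Their choice by a 12 hour value under that at 24 hours favours this. C1qtnf6, a secreted protein of the C1q and TNF family, read 268, 96.2 and 288 at 6, 12 and 24 hours (1.40), and Dlk2, a homolog of Dlk1, 353, 82.2 and 241 (1.35, but 0.30 in its other probe set). Hoxb9, a homeobox gene of the posterior body, read 329, 203 and 496 (1.21). The 6 hour values were thus closer to those at 24 hours than were the 12 hour values. Psg28, Tmem171, Plb1, Cd3e, Krt33a, Scube1, Cryga and Ccdc153 were the other 8, with differences from 1.03 to 1.33.

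Increases of bright genes were smaller. Over all 14755 kept genes, 328 were up and 309 down by 1.5-fold or more. Among the 5494 genes with a mean above 372, the 80th percentile of all values, 21 were up and 35 down by as much. Irs4, an insulin receptor substrate gene, had the largest increase, at 110, 342 and 641 (0.87, but 0.21 in its other probe set), followed by Pdia4, a disulfide isomerase gene of the endoplasmic reticulum, at 282, 272 and 502 (0.84, but 0.02 in its other probe set). Car14, a carbonic anhydrase gene, read 169, 480 and 829 (0.76), and Trh, which encodes thyrotropin-releasing hormone, 1458, 2034 and 3254 (0.67). Irs4, Car14 and Trh were each higher at 12 than at 6 hours and higher again at 24 hours.

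The same interval in DKK + dox was measured on 2 other arrays, so the differences can be set side by side. In DKK + dox the 24 hour value was 2-fold or more above the 12 hour value for 235 genes (1.59%) and 2-fold or more below it for 123 (0.834%). Of all kept genes, 54.2% were higher and 45.8% lower there. Of the 52 genes 2-fold lower in DKK, 38 were lower in DKK + dox, and of the 20 with both DKK arrays above the limit, 17 were. Of the 63 genes 2-fold higher in DKK, 33 were higher in DKK + dox, and 6 of the 11. The bright genes 1.5-fold apart went the same way more often: 32 of the 35 lower genes were lower in DKK + dox and 20 of the 21 higher genes were higher. The shares of 54.2% and 45.8% are over all kept genes, most of them dimmer than these. Across genes, the correlation of the DKK and DKK + dox differences was -0.03 in the dimmest of the 10 parts (1476 genes) and 0.68 in the brightest (1476 genes). Genes are not independent replicates.

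**Figure D4:**
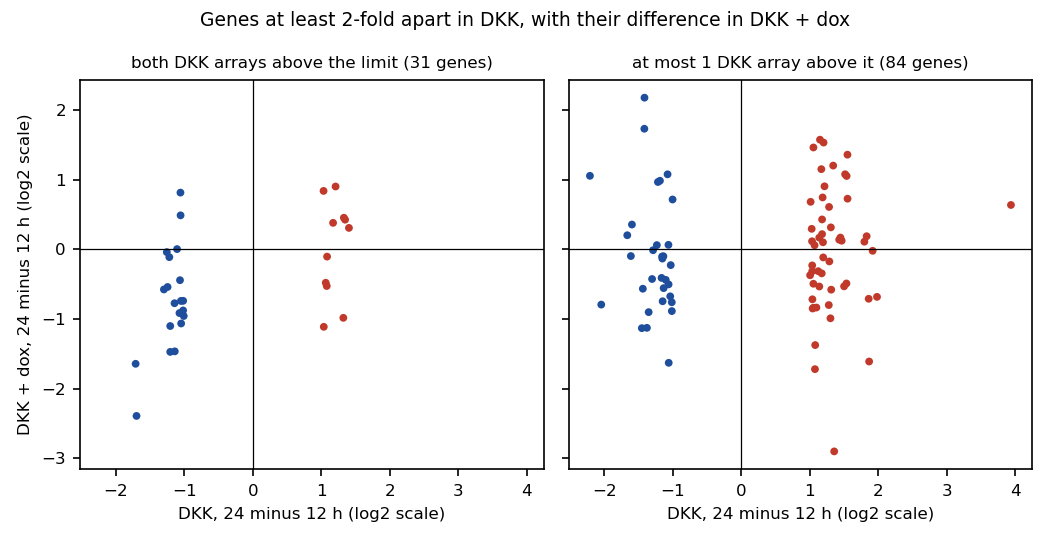
Difference from 12 to 24 hours in DKK + dox against that in DKK (both 24 minus 12 hours, log2 scale) for the genes at least 2-fold apart in DKK, 1 point per gene. On the left, where both DKK arrays were above the low-signal limit, 17 of 20 blue points lie below 0; on the right the points lie on both sides of 0.

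Dnmt3l read 487 at 12 hours and 142 at 24 hours in DKK + dox (-1.64), and Zfp42 944 and 516 (-0.85), each close to its DKK values. Snhg7 read 423 and 139 (-1.47), Rab26os 412 and 62.0 (-2.39) and Tcf15 698 and 323 (-1.06). The naive pluripotency list had a median of -0.43 with dox. Other decreases had smaller differences with dox. Epas1 read 622 and 574 in DKK + dox (-0.11) and Ndnf, a secreted factor gene, 224 and 218 (-0.04), against 148 and 50.1 in DKK. Cdkn1c read 1398 and 1552 (0.15). Whether these differences differed between the cultures was not tested, since each is a difference of 2 arrays.

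Blood and endothelium genes were lower in DKK at 24 than at 12 hours, and mostly faint. All cultures had DKK, so an effect of Wnt inhibition on these genes was not tested. Of 22 kept genes, 18 were lower and 4 higher, beside 47.6% lower over all genes, with a median of -0.28. At least 1.5-fold lower were 7 of the 22, beside 2.09% over all genes. Over the 10 genes above the limit on both arrays, the median was -0.10, which is above the -0.2 at which a list was called lower. Gata2, a transcription factor of blood progenitors, read 41.8, 109 and 41.4 at 6, 12 and 24 hours in DKK (-1.06), Tal1 26.5, 78.9 and 39.0 (-0.74) and Fli1 10.6, 58.4 and 20.9 (-0.93). Lmo2, a partner of Tal1, read 84.4, 269 and 154 (-0.73), and Etv2, an ETS factor at the head of this lineage, 354, 640 and 389 (-0.69). All 5 were highest at 12 hours. The others of the 7 were highest at 6 hours and lowest at 24 hours. Sox7 read 272, 53.9 and 25.1 (-0.70), and Hbb-y, under the limit each time, 32.2, 26.8 and 1.0 (-1.13). In such bulk samples, fewer cells of a type and less RNA per cell cannot be told apart.

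In DKK + dox the list had a median of 0.72 from 12 to 24 hours, with 18 genes higher and 4 lower, beside 54.2% higher over all genes. Erg, Cdh5, Flt1 and Hbb-y were under the limit on every DKK array and were kept through dox arrays alone. Their differences with dox were 1.65, 1.66, 0.81 and -0.56. The filter thus favours genes that are high with dox, and the median is no independent contrast with DKK. With dox, Gata2 read 359 and 646 (0.81), and Fli1 206 and 693 (1.65). Etv2 went the other way, at 2572 and 1257 (-1.02), and so was lower at 24 than at 12 hours in both cultures. Runx1, at 155 and 217 in DKK (0.44), was the gene of this list with the largest increase in DKK.

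**Figure D5:**
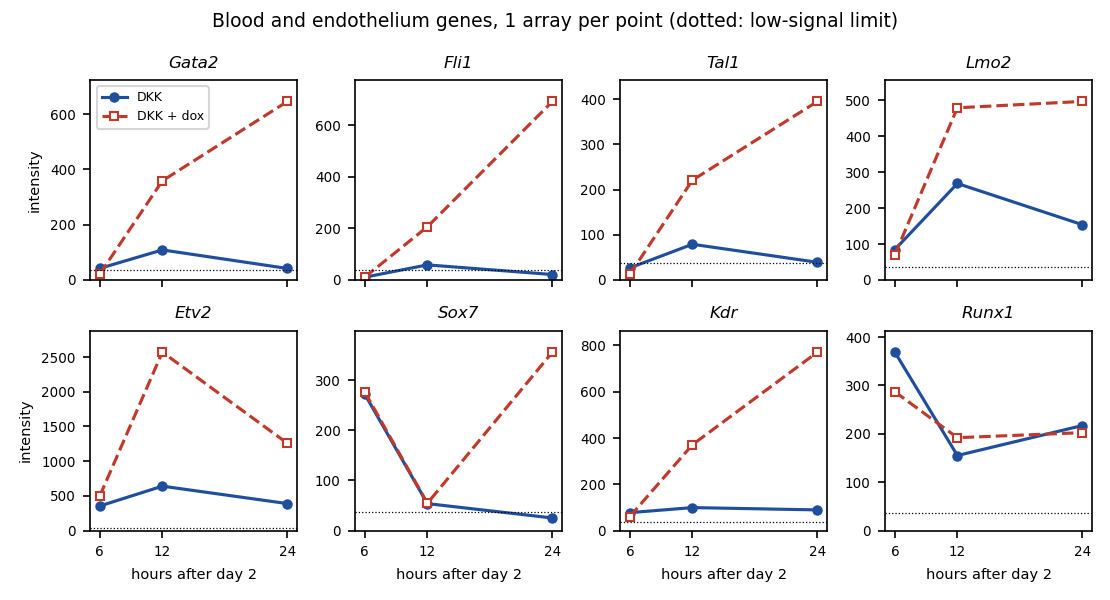
Intensity (linear axis from 0) of 8 blood and endothelium genes at 6, 12 and 24 hours after day 2 in DKK (blue) and DKK + dox (red), 1 array per point, with the low-signal limit dotted. In DKK, Gata2, Fli1, Tal1, Lmo2 and Etv2 were highest at 12 hours, and at 24 hours all shown but Runx1 were far lower than with dox.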

How the data were processed

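RNA of A2.Snail cultures in DKK or DKK + dox was measured on 6 Affymetrix MOE430_2.0 arrays, 1 per condition at 6, 12 and 24 hours after day 2, and each array's condition and time came from its labels. Normalization and modeling were done by the authors in dChip. The deposited values are intensities on a linear scale, none under 1. Which dChip version and model were used is not given in the sources used here. Modeled values near this floor vary widely on a log scale. Precision is limited by the number of arrays and by signal. The low-signal limit was not exceeded by 37.5 to 41.3 percent of probe sets, depending on the array.

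Gene symbols came from the platform annotation, which can be old, with Entrez IDs looked up in the RefSeq table of GRCm38.p6. Of 45037 probe sets, 34945 had 1 symbol (34741 matched and 0 were renamed), 932 had several and 9160 none; genes on the latter sets alone are not analysed here. Among a gene's probe sets, the one with the highest mean over the 6 arrays was used. Values were taken as log2(intensity + 20.6), an offset at the 25th percentile of all values. Genes counted as apart at 2-fold (1 on the log2 scale), and a list as higher or lower at a median of 0.2 or more in size. No test was made. Alternatives in offset, filter, normalization, probe set and fold are given in the closing section. The counting was tested on simulated data, with changes larger than 2-fold put on bright genes only. Recovery was thus not tested for faint genes or for differences near 2-fold. The tools were Python 3.11.15, numpy 2.4.6, pandas 2.3.3 and matplotlib 3.10.9.

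The genes named are Cdh1, Snai1, Pou5f1, Nanog, Sox2, Otx2, Fgf5, Zic5 and Cldn6, the 20 largest increases and decreases with at least 1 DKK array above the limit, and from each list the 3 members furthest from 0. Of these, faint or repeated ones are given by counts only. Any other gene was chosen with its value in view. The comparison, the 34 lists and this rule were chosen with earlier results of these data known. Of the study's other measurements, none was used here.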

Additional observations from a re-analysis of the deposited data

Results flagged for a closer look

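Genes at least 2-fold apart in opposite directions in DKK and DKK + dox stood out among those named by size. From 12 to 24 hours Tmem25 differed by 1.87 in DKK and by -1.61 in DKK + dox, Capn11 by 1.36 and -2.90, Abca13 by -2.21 and 1.05, Myo1f by -1.42 and 1.73, and Dmrt3 by -1.41 and 2.18. In DKK each had 1 of its 2 arrays at or under the low-signal limit. The blood and endothelium list had a median of -0.28 in DKK and 0.72 in DKK + dox. Some of its genes were kept through dox arrays alone, so these medians are not on an equal footing. These contrasts between the cultures were not tested.

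Probe sets without exactly 1 gene symbol also held differences. Of 5235 such probe sets above the limit on at least 1 array, the 24 hour DKK value exceeded the 12 hour value by 2-fold or more in 65 (1.24%) and fell short of it by 2-fold or more in 34 (0.649%). With both DKK arrays above the limit (3387 probe sets), these were 16 and 12.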

How the results depend on the processing

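The counts of genes at least 2-fold apart depended on how faint values were treated. The main counts were 63 higher and 52 lower in DKK and 358 apart in DKK + dox. They were 218, 200 and 832 with an offset of 1, 24, 23 and 220 with an offset at the pooled 40th percentile, and 11, 20 and 215 with both DKK arrays above the limit. A filter at the pooled 60th percentile gave 25 higher and 34 lower, and the mean of all probe sets gave 32 lower and 229 apart in DKK + dox. At 1.5-fold the counts were 328, 309 and 1543, and at 3-fold 7, 7 and 67. With no filter, quantile normalization, arrays centred on the median, plain probe sets only or the probe set with the highest DKK mean, all 3 counts were within 1.5 times the main ones.

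The 5 list medians past 0.2 kept their sign under the 10 alternatives to offset, filter, normalization and probe set, from -0.83 to -0.43 for naive pluripotency, -0.48 to -0.25 for germ cells, 0.21 to 0.25 for cholesterol synthesis, 0.18 to 0.24 for epithelial genes and -0.43 to -0.10 for blood and endothelium, so the last 2 crossed 0.2. The median of naive pluripotency was -0.83 with an offset of 1, and that of the EMT transcription factors 0.11 in place of -0.14 with the mean of all probe sets. Of 2738 values of single genes under these alternatives, 203 moved by more than the spread between probe sets. The sign turned in 24 values of 20 genes, 14 of them when all probe sets were averaged. In 12 of these genes the main difference was larger than that spread. Zeb1 went from -0.44 to 0.11, Itga5 from -0.53 to 0.05 and Ndrg1 from -0.31 to 0.17 on averaging. Of genes past 2-fold, Ckmt1 alone turned, from -1.61 to 0.11 in the probe set with the highest DKK mean. No paired analysis was possible because each condition has 1 array per time. Leaving out an array leaves no difference.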

Other observations

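The host genes of small nucleolar RNAs were looked at after Snhg7 was seen among the largest decreases. Of 14 kept genes named Snhg, 10 were lower in DKK at the later time, 3 of them by at least 1.5-fold, none was higher by that much, and the median was -0.11. Without Snhg7, which prompted the look, 9 of 13 were lower, 2 of them by at least 1.5-fold, beside 47.6% of all genes lower. Snhg4 read 1087 and 578 (-0.89) and Snhg3 3329 and 2141 (-0.63), whereas Snhg1, at 4301 and 4356, and Snhg5, at 3334 and 3172, were level. In DKK + dox 12 of the 14 were lower, Snhg7 (-1.47) among them, beside 45.8% of all genes. Of the 14, 6 were lower by at least 1.5-fold, 1 was higher by that much, and the median was -0.44. Snhg4 read 1231 and 397 there (-1.58) and Snhg14 1849 and 3209 (0.79). Dancr, another host gene, read 978 and 547 without dox (-0.82) and 989 and 391 with it (-1.30).

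Several further bright genes, chosen by their values, were lower in both cultures. The kinase gene Pim1 read 575 at 12 hours and 313 at 24 hours in DKK (-0.84, but -0.03 in its other probe set), against 1090 and 491 with dox (-1.12). Gdf3, a ligand of the TGFβ family, read 1482 and 931 (-0.66) and 825 and 441 (-0.88). The X-linked homeobox gene Rhox5 read 938 and 610 (-0.60) and 1075 and 607 (-0.80). Hspb1, a small heat shock protein gene, read 2213 and 1402 (-0.65) and 2715 and 1677 (-0.69).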
